A study of Homo sapiens with 12 samples.

Results

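The genes described here are 58 of 19775 measured genes that lay near the floor of the array in L428 cells, with and without 5-Aza-dC, and in untreated L1236 cells, and whose signal was well above it in L1236 cells given 5-Aza-dC. Each gene was represented by 1 probe set, the one with the highest mean over the 12 arrays among probe sets that carry a single gene symbol. Members were chosen by their group means: the mean log2 signal had to be at least 6 in treated L1236 and below 4 in each of the other 3 groups. EPCAM, KRT19 and IL13 were left out by name. These limits used all 4 group means, so the levels of the members and their differences between groups are the basis of the choice and are given as a description without a test.

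L428 and L1236 are established cell lines from classical Hodgkin lymphoma, which arises from B cells but expresses few of their genes. Both lines were measured without treatment and after a 24 h exposure to 5-Aza-dC at 1 µM and a further 72 h in medium without the drug, with 3 arrays in each of the 4 groups. The treatment was stated to have been run in triplicate, but no label says that each replicate was its own culture, so the p-values cover the spread between arrays only, which may be technical. Untreated L1236 replicate 1 carries conflicting labels, since its description says untreated L1236 and its source name treated L428. Over genes its values correlated at 0.994 to 0.995 with untreated L1236 replicates 2 and 3 and at 0.901 to 0.916 with the treated L428 arrays. It was used as untreated L1236.

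Decitabine, as 5-Aza-dC is also called, enters newly made DNA in place of deoxycytidine and traps the DNA methyltransferases there, and dividing cells then lose methylation at CpG sites. Promoters with many CpG sites that are methylated are usually silent, and loss of the methylation can allow transcription if the factors that drive the gene are present. Genes of the germ line, of development and of other tissues are among those known to be held silent in this way in somatic and tumour cells.

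The promoter windows of 6 members are printed here to show how widely the members differ in the CpG sites at which the drug acts. The first 3 hold many CpG sites, and the last 3, among them the window of the member with the highest signal, hold few. The sequences are from RefSeq on GRCh38.p14, run 5′ to 3′ on the strand of the gene from 250 bases before to 50 bases after a transcript start, and have each CpG in capitals. The IGFBP3 window is chr7:45921223-45921522 on the minus strand with 36 CpG, and the KDELR3 window is chr22:38467846-38468145 on the plus strand with 39. The ALKAL2 window is chr2:288042-288341 on the minus strand with 49 CpG. The ITIH3 window is chr3:52794546-52794845 on the plus strand with 10 CpG. The SOST window is chr17:43758742-43759041 on the minus strand with 7 CpG, and the GSTM3 window is chr1:109740989-109741288 on the minus strand with 1.
IGFBP3: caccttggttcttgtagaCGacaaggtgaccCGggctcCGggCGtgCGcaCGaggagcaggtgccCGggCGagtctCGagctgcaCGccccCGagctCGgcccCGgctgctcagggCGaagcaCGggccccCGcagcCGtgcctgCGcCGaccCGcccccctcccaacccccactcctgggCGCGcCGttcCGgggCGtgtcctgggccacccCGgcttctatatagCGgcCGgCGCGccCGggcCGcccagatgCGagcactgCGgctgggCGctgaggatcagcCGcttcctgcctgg
KDELR3: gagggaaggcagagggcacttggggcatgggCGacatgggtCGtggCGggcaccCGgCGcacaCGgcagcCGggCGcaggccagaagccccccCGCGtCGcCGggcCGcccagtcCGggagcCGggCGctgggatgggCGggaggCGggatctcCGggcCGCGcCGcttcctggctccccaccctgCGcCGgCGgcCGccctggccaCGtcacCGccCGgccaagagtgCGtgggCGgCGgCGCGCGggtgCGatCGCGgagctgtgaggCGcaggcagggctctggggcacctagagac
ALKAL2: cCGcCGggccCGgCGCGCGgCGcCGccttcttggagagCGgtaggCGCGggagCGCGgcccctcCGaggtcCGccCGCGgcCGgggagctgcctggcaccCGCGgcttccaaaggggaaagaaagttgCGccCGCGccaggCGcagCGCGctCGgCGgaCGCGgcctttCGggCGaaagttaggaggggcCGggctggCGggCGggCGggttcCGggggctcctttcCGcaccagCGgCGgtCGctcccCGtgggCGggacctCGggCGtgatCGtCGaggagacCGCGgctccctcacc
ITIH3: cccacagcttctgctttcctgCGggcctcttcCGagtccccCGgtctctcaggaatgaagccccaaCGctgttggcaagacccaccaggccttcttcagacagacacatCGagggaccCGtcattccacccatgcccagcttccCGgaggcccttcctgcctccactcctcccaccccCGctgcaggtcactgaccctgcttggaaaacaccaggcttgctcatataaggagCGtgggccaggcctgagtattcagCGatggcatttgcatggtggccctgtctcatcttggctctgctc
SOST: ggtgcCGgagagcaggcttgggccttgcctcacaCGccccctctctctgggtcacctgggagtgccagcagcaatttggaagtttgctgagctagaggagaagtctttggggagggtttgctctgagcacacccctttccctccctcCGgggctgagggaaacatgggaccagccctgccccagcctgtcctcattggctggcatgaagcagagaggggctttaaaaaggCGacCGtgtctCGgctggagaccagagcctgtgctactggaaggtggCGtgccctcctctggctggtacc
GSTM3: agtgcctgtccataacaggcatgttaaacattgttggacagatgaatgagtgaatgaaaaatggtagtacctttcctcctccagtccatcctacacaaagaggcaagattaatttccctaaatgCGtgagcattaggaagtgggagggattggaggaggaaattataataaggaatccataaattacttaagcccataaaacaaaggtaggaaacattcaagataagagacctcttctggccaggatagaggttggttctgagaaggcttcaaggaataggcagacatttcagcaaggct

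RefSeq promoter windows were matched for 41 of the 58 members, and where a gene had several windows the one with most CpG was taken. The median member window held 23 CpG, with quartiles of 13 and 31, and its GC content was 63.0%. Of the 41 windows, 27 (65.9%) were island-like, defined as an observed over expected CpG ratio of at least 0.6 with a GC content of at least 50%. The same share was 69.3% over the 15384 measured genes with a window and 42.7% over the 5823 whose means were below 4 in all 4 groups. It was 91.9% over the 6531 genes at 6 or above in all 4 groups and 55.6% over 45 genes that were silent untreated and at 6 or above in both treated lines. The members' share thus lay near that of all genes and above that of the genes that stayed silent, without a test.

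At the CpG-rich end stood ALKAL2, LHFPL2 (44), RET (41) and C1QTNF12 (40). At most 10 CpG were found in 9 windows (22.0%, against 24.0% of all genes and 48.5% of the genes silent in all groups). These belonged to ITIH3, SOST, GSTM3, RASIP1 (8), SIGLEC10 (6), MMP20 (3), CCL19 (2), TRIM31 (1) and LINC02201 (0). The median level in treated L1236 was 6.78 (6.03 to 9.11) for the 27 island-like members and 6.51 (6.08 to 10.7) for the 14 others, so members with both kinds of promoter covered overlapping ranges. With the window listed first in place of the one with most CpG, 61.0% of member windows were island-like, against 64.4% of all windows and 39.1% of those of genes silent in all groups.

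The windows were searched on both strands for 4 short motifs, none of which contains another. The TATA box TATAAA was found in 4 windows (9.76%, against 8.18% of all genes), those of CYP4X1, MMP20, SCIN and TRIM31. The AP-1 motif TGANTCA was found in 4 (9.76%, against 5.39%), those of FOSL2, LINC02201, MMP20 and SPINT1. The E-box CACGTG was found in 4 (9.76%, against 8.96%), those of CFAP251, GAGE1, HOXD1 and PNLDC1. The GC box GGGCGG was found in 22 (53.7%, against 62.7%).

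**Figure D1:**
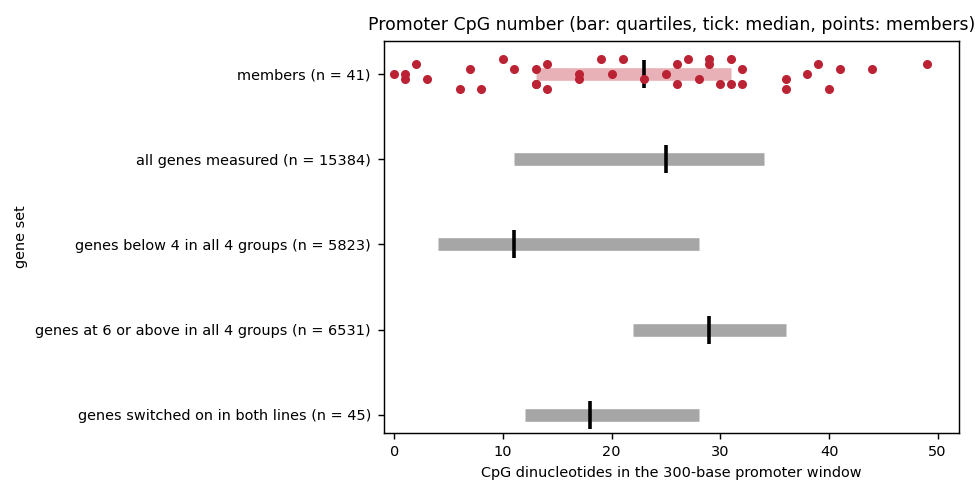
The number of CpG dinucleotides in the 300-base promoter window (horizontal axis) is shown for 5 sets of genes (rows). Bars span the quartiles, ticks mark the median and points are the 41 members with a window. The members spread from 0 to 49 CpG around a median of 23, near that of all measured genes (25) and above that of genes below 4 in all groups (11).

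Signals were log2 values as deposited, and their floor lay at about 2 to 4, so the size of a difference from the floor depends on where the processing placed it. Signals of different probe sets also differ in how well the probes bind, so an order of genes by level is an order of signals and not of transcript amounts. The group means of the members ran from 1.88 to 3.84 in L428 without the drug, from 1.92 to 3.98 in L428 with it and from 1.88 to 3.81 in L1236 without it. In treated L1236 they ran from 6.02 to 10.7 with a median of 6.62, which placed them between the 54.1 and the 88.1 percentile of all genes in that group. The median difference between treated and untreated L1236 was 3.97 on the log2 scale (2.22 to 8.69), and it was at least 3 in 50 members, at least 4 in 27 and at least 5 in 11. Over all genes the median difference was -0.029.

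In L428 the median difference of the members was 0.11 (-0.42 to 1.32), and 33 of the 58 lay within 0.25 of 0. It reached 1 in 4 members, SHTN1 (1.32), GSTM3 (1.31), IFNLR1 (1.08) and C5orf58 (1.07). On single treated L428 arrays, 11 members read 4 or more, 1 on replicate 1 and 6 each on replicates 2 and 3 (GSTM3 and SHTN1 on both), with a highest value of 5.19. Silence in treated L428 was therefore a statement about the group mean for those 11 genes.

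On the treated L1236 arrays, 36, 56 and 52 of the 58 members read 6 or more on replicates 1, 2 and 3, and none did on the other 9 arrays. All 3 treated L1236 arrays lay above all 3 untreated ones in 57 members (15.8% of all genes did so) and above all 9 other arrays in the same number (6.97% of all genes). CSF3 was the exception. Because the rule fixes a gap between the group means, nothing is read from these counts. Some 29 members were at 6 or above on all 3 treated L1236 arrays, and 20 met the limits on each of the 12 arrays.

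**Figure D2:**
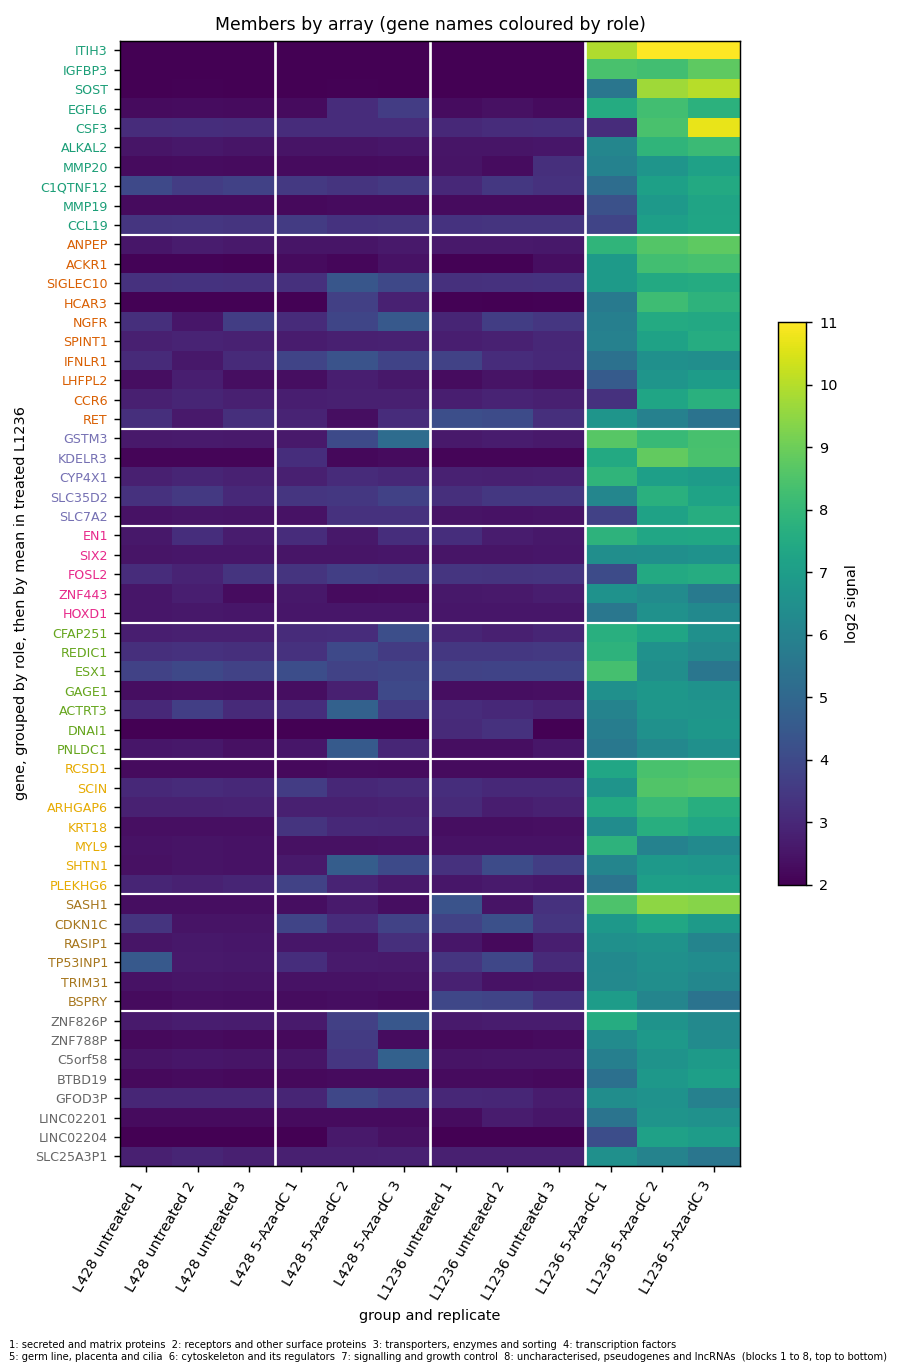
The log2 signal (colour, from 2 to 11) of the 58 members (rows, in blocks by role and then by mean in treated L1236) is shown on the 12 arrays (columns, in the 4 groups). The first 9 columns are dark throughout apart from single cells of up to 5.19, and the last 3 are light, with replicate 1 below the mean of replicates 2 and 3 in 44 of 58 rows.

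The roles below were assigned from general knowledge once the members were known. Secreted and matrix proteins made up 10 of the 58. ITIH3, a heavy chain of the inter-alpha-trypsin inhibitor that the liver secretes and that binds hyaluronan, had the highest signal and the largest difference of all members. It read 9.92, 11.09 and 11.1 on treated L1236 replicates 1, 2 and 3, 2.01, 2.0 and 2.02 on untreated L1236, 2.01, 2.03 and 2.01 on untreated L428 and 2.0, 2.01 and 2.02 on treated L428. The treated L1236 arrays were all far above the other 9, which lay within 0.03 of each other.

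IGFBP3, a carrier of insulin-like growth factors, read 8.43, 8.26 and 8.75 in treated L1236 and 1.92 to 1.94 on the other arrays, with little spread in either. EGFL6, a secreted protein with EGF-like repeats, read 7.52, 8.28 and 7.8, against 2.26, 3.13 and 3.59 in treated L428 and 2.27 to 2.39 on the untreated arrays, so that L428 replicates 2 and 3 stood slightly above the floor. ALKAL2, a ligand of the receptor kinase ALK, read 6.14, 7.9 and 8.12, against 2.49 to 2.58 elsewhere. In these members no treated L1236 array came near the floor.

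SOST encodes sclerostin, a Wnt inhibitor made by osteocytes. It read 5.52, 9.73 and 10.03 on the treated L1236 arrays and 2.02 to 2.07 on the others, with replicate 1 far below replicates 2 and 3 but still above every other array. CSF3, the granulocyte colony-stimulating factor, read 3.15, 8.41 and 10.71 on treated L1236 replicates 1, 2 and 3 and 3.05 to 3.18 on the others. For this gene replicate 1 was inside the range of the untreated L1236 arrays (3.05, 3.15 and 3.18), and the group mean of 7.42 rested on the other 2 arrays. CCL19, a chemokine of lymph node stroma, read 3.86, 7.07 and 7.3, against 3.32 to 3.55 elsewhere, again with replicate 1 close to the floor.

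A pair of matrix metalloproteinases were members. MMP20, which processes tooth enamel matrix, read 6.0, 6.69 and 7.16 in treated L1236 and 2.25 to 3.2 elsewhere. MMP19 read 4.24, 6.82 and 7.24 and 2.24 to 2.28. In both, replicate 1 was the lowest treated L1236 array, and the gap was wider for MMP19. C1QTNF12, an adipokine of the C1q and TNF-related family, read 5.23, 7.11 and 7.47, against 3.03 to 4.0, and its highest values outside treated L1236 were in untreated L428.

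Receptors and other surface proteins also numbered 10. ANPEP (aminopeptidase N, the myeloid antigen CD13) read 7.88, 8.59 and 8.75 in treated L1236 and 2.51 to 2.68 elsewhere. ACKR1, the chemokine-binding Duffy antigen of red cells and venules, read 6.89, 8.29 and 8.38 and 2.05 to 2.43. SIGLEC10, an inhibitory lectin of leukocytes that binds sialic acid, read 6.9, 7.46 and 7.52, with 3.26, 4.4 and 3.96 in treated L428 and 3.24 to 3.33 on the untreated arrays. Only for SIGLEC10 among these 3 did treated L428 arrays exceed the untreated ones by more than 0.5, on replicates 2 and 3.

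HCAR3, a receptor for hydroxylated fatty acids, read 5.72, 8.21 and 7.83, against 2.04, 3.69 and 2.83 in treated L428 and 2.03 to 2.05 untreated. NGFR, the low-affinity neurotrophin receptor, read 5.88, 7.51 and 7.42, against 2.55 to 4.51 elsewhere. SPINT1, a membrane-bound serine protease inhibitor of epithelia, read 5.94, 7.18 and 7.57, against 2.67 to 3.0. Replicate 1 was the lowest treated L1236 array in all 3. HCAR3 has a near-identical paralogue, HCAR2, so its value may hold signal of both.

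CCR6, the receptor of the chemokine CCL20, read 3.3, 7.28 and 7.71, against 2.76 to 2.92 elsewhere. Its replicate 1 was only slightly above the arrays of the other groups, and the mean of 6.09 rested on replicates 2 and 3. IFNLR1, the ligand-binding chain of the receptor for type III interferons, read 5.37, 6.5 and 6.43 in treated L1236, against 3.76, 3.16 and 3.05 untreated. In L428 it read 3.84, 4.3 and 3.8 with the drug and 3.06, 2.58 and 3.07 without it. Its treated L428 mean of 3.98 was the member value closest to the limit of 4. LHFPL2, a tetraspan membrane protein, had a mean of 6.10 with replicate 1 at 4.60. RET, the receptor kinase of the GDNF family, ran the other way among the replicates, with 6.71, 5.97 and 5.42 in treated L1236 and 4.15, 4.06 and 3.22 in untreated L1236.

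Partners of these ligands and receptors were looked up after the members were known, and their group means are given in the order untreated L428, treated L428, untreated L1236 and treated L1236. CCR7, the receptor of CCL19, was high throughout at 12.91, 13.55, 13.71 and 14.46. IL10RB, the second chain of the IFNLR1 receptor, was at 9.12, 9.07, 9.45 and 9.30. The transcripts of the CSF3 receptor CSF3R (2.26 to 2.29) and of the ALKAL2 receptor ALK (2.36 to 2.89) were near the floor in every group. The RET co-receptors GFRA1 (2.65 to 2.72) and GFRA2 (2.83 to 2.88) were near it too, while GFRA3, another co-receptor of that family, was at 1.96, 1.95, 1.95 and 3.44. CCL20, the ligand of CCR6, was at 2.49, 9.07, 2.41 and 4.61, and IFNL1, a ligand of IFNLR1, at 2.29, 7.45, 2.29 and 4.15. The SD in treated L428 and treated L1236 was 3.02 and 1.92 for CCL20 and 0.65 and 1.61 for IFNL1. Both ligands had their highest mean in treated L428, where the receptor means were 2.78 for CCR6 and 3.98 for IFNLR1, the latter just under the limit of 4.

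**Figure D3:**
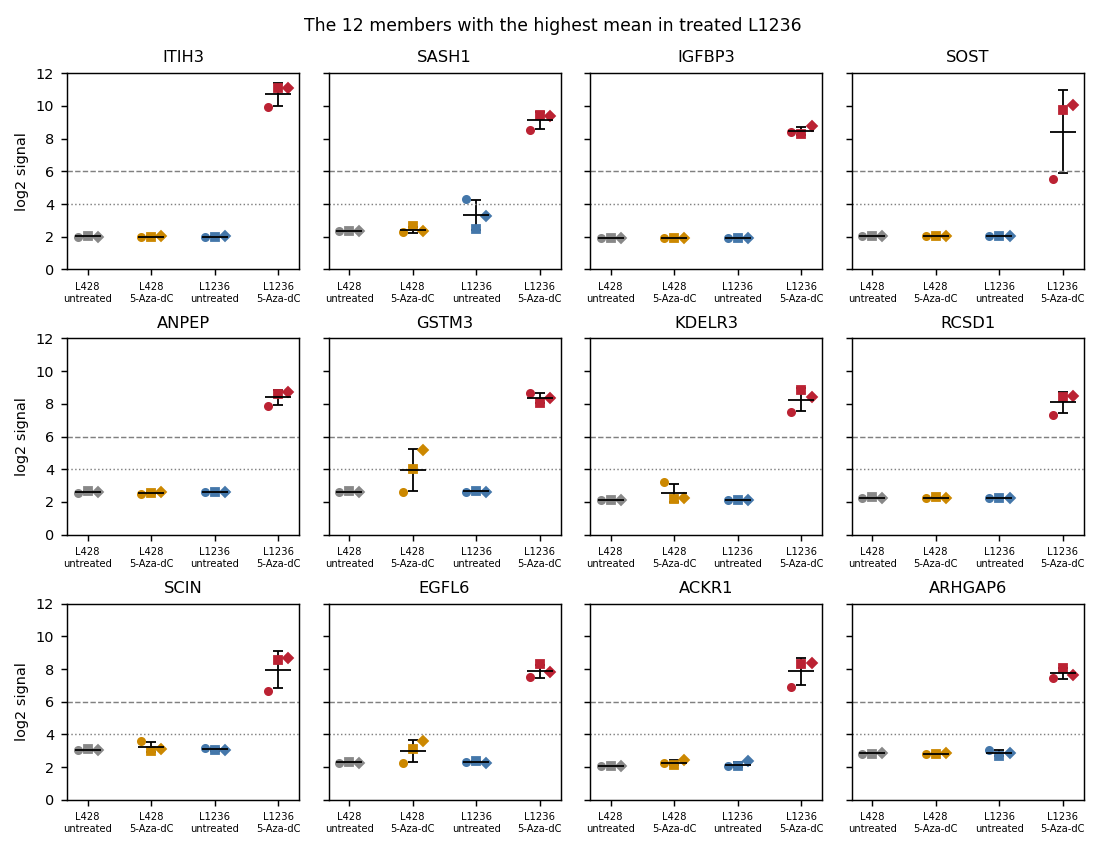
The log2 signal (vertical axis, from 0 to 12) is shown for the 12 members with the highest mean in treated L1236, by group (horizontal axis). Circles, squares and diamonds are replicates 1, 2 and 3, lines are means and bars 1 SD with n = 3, and the dotted and dashed lines are the limits of 4 and 6. SOST has the widest spread in treated L1236, from 5.52 to 10.03, and GSTM3 the highest single value in treated L428, 5.19.

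Transporters, enzymes and sorting proteins were 5 members. GSTM3, a mu-class glutathione S-transferase, read 8.67, 8.08 and 8.38 in treated L1236, 2.6, 4.02 and 5.19 in treated L428 and 2.61 to 2.7 untreated. Its treated L428 arrays ranged from the untreated level to well above 4. KDELR3, a receptor that returns escaped proteins to the endoplasmic reticulum, read 7.48, 8.85 and 8.43, against 2.11 to 3.19 elsewhere. CYP4X1, a cytochrome P450, read 7.89, 7.07 and 6.95, against 2.8 to 3.12. SLC35D2, a nucleotide sugar transporter of the Golgi, read 6.12, 7.71 and 7.21, against 3.05 to 3.75. SLC7A2, a transporter of arginine and other cationic amino acids, had a mean of 6.17 with replicate 1 at 3.75, below the limit of 4.

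Transcription factors were 5 members, of which 3 are homeobox factors of the embryo. EN1, which patterns the midbrain and limbs, read 7.83, 7.34 and 7.37 in treated L1236 and 2.58 to 3.19 elsewhere. SIX2, a factor of kidney progenitors, read 6.45, 6.48 and 6.6 and 2.51 to 2.55, and had the smallest spread in treated L1236 of all members (SD 0.08). HOXD1 read 5.58, 6.54 and 6.26 and 2.53 to 2.57. FOSL2, a Fos-related subunit of AP-1, read 4.04, 7.47 and 7.58, against 2.91 to 3.67, with replicate 1 near the untreated level. ZNF443, a zinc finger factor, read 6.58, 6.35 and 5.71, against 2.27 to 2.77. The AP-1 partners JUN (11.84 to 12.37 over the 4 group means) and JUNB (9.42 to 11.59) were high in every group.

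Genes of the germ line, placenta and cilia were 7 members. GAGE1, an X-linked cancer-testis antigen, read 6.5, 6.77 and 6.58 in treated L1236 and 2.34, 2.78 and 3.99 in treated L428, with 2.35 to 2.37 untreated. Its probes may not separate the near-identical copies of its family, so the value may belong to several of them. CFAP251, of the sperm flagellum, read 7.67, 7.28 and 6.53, against 2.77 to 4.15 elsewhere. REDIC1, a meiotic recombination protein, read 7.83, 6.57 and 6.22, against 3.2 to 4.0. For ESX1, a homeobox factor of placenta and testis, the values were 8.36, 6.43 and 5.55 and 3.76 to 4.14. Replicate 1 was the highest treated L1236 array in CFAP251, REDIC1 and ESX1.

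ACTRT3, an actin-related protein of the testis, had a mean of 6.47 in treated L1236 and read up to 4.78 in treated L428. DNAI1, an intermediate chain of the dynein of motile cilia, had a mean of 6.37, and PNLDC1, the nuclease that trims piRNA ends, one of 6.12. PNLDC1 read 2.55, 4.56 and 2.98 in treated L428, with replicate 2 apart from the other two. TDRKH, with which PNLDC1 works, was at 7.17 to 8.49 in the 4 groups.

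Proteins of the cytoskeleton and their regulators were 7 members. RCSD1, which binds the actin-capping protein, read 7.32, 8.43 and 8.51 in treated L1236 and 2.24 to 2.3 elsewhere. SCIN, an actin-severing protein, read 6.65, 8.56 and 8.66 and 3.01 to 3.61, and ARHGAP6 7.46, 8.09 and 7.64 and 2.71 to 3.06. None of their treated L1236 arrays was below 6. KRT18, a keratin of simple epithelia, read 6.37, 7.64 and 7.31, against 3.37, 3.02 and 2.99 in treated L428 and 2.35 to 2.38 untreated. Each treated L428 array was above every untreated array for KRT18. Its filament partner KRT8 was at 7.13, 8.60, 5.86 and 7.15 in the 4 groups, in the order given above.

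MYL9, the regulatory light chain of smooth muscle myosin, read 7.81, 6.0 and 6.29, against 2.41 to 2.48 elsewhere, with replicate 1 highest. SHTN1, a protein of growing axons, read 6.09, 6.82 and 6.72 in treated L1236, 3.28, 4.04 and 3.62 untreated and 2.6, 4.67 and 4.01 in treated L428, so that its silence outside treated L1236 was loose. PLEKHG6 had a mean of 6.53 with replicate 1 at 5.45.

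Genes of signalling and growth control were 6 members. SASH1, a scaffold protein and candidate tumour suppressor, read 8.5, 9.47 and 9.37 in treated L1236, 4.31, 2.49 and 3.27 in untreated L1236 and 2.32 to 2.64 on the 6 L428 arrays. Untreated L1236 replicate 1, the array with the conflicting labels, was its highest outside treated L1236. CDKN1C, an imprinted inhibitor of cyclin-dependent kinases, read 6.81, 7.37 and 6.92, against 2.46 to 4.19 elsewhere. RASIP1, TP53INP1, TRIM31 and BSPRY had means of 6.40, 6.39, 6.29 and 6.16. The first is an endothelial Ras-binding protein, the second a p53-induced protein and the third a ubiquitin ligase. TP53INP1 read 4.5 on untreated L428 replicate 1 and 2.61 and 2.59 on replicates 2 and 3.

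The remaining 8 members are pseudogenes, long non-coding RNAs or genes with no function assigned here. ZNF826P read 7.56, 6.64 and 6.22 in treated L1236 and 2.64, 3.7 and 4.44 in treated L428, with 2.66 to 2.73 untreated. ZNF788P read 6.34, 6.83 and 6.34, against 2.23 to 3.57 elsewhere. LINC02201 and LINC02204 read 5.47, 6.65 and 6.54 and 4.13, 7.15 and 6.99 in treated L1236 and stayed at or below 2.68 on the other arrays. Means in treated L1236 were 6.48 for C5orf58, 6.39 for BTBD19, 6.31 for GFOD3P and 6.02 for SLC25A3P1.

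Treated L1236 replicate 1 stood apart for part of the members. It was below the mean of replicates 2 and 3 in 44 of 58 members, with a median deviation of -0.84, whereas the median over all genes was 0.03. It was below by more than 2 in 11 of the 58 members. Of the other 177 genes below 4 in untreated L1236 and at 6 or above in treated L1236, 33 were, a similar share. Over all genes, including those that stayed silent, 168 (0.85%) were. The 11 members were CSF3 (-6.42), SOST (-4.36), CCR6 (-4.20), SLC7A2 (-3.63), FOSL2 (-3.48), CCL19 (-3.32), LINC02204 (-2.93), MMP19 (-2.79), HCAR3 (-2.30), LHFPL2 (-2.24) and C1QTNF12 (-2.06). It was above by more than 1 in 6 members, against 744 (3.76%) of all genes, namely ESX1 (2.37), MYL9 (1.66), REDIC1 (1.44), BSPRY (1.21), ZNF826P (1.13) and RET (1.01).

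The low values of replicate 1 were shared unequally between roles. Of the secreted and matrix proteins 5 of 10 were below by more than 2, and of the surface proteins 3 of 10. None of the 7 germ-line and cilia genes, 7 cytoskeletal genes and 6 signalling genes were. In the other roles it was 1 of 5 transcription factors, 1 of 5 transporters, enzymes and sorting proteins, and 1 of the 8 remaining genes. The median deviation was -1.97 for the secreted proteins, -1.44 for the surface proteins, -1.11 for the cytoskeletal genes and -0.17 for the germ-line genes. With 5 to 10 genes per role, assigned once the members were known, this is a description only. Of the other 177 genes that were below 4 in untreated L1236 and at 6 or above in treated L1236, 33 were below by more than 2 and 3 above by more than 1. The cause of the lower values on replicate 1 was not tested.

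**Figure D4:**
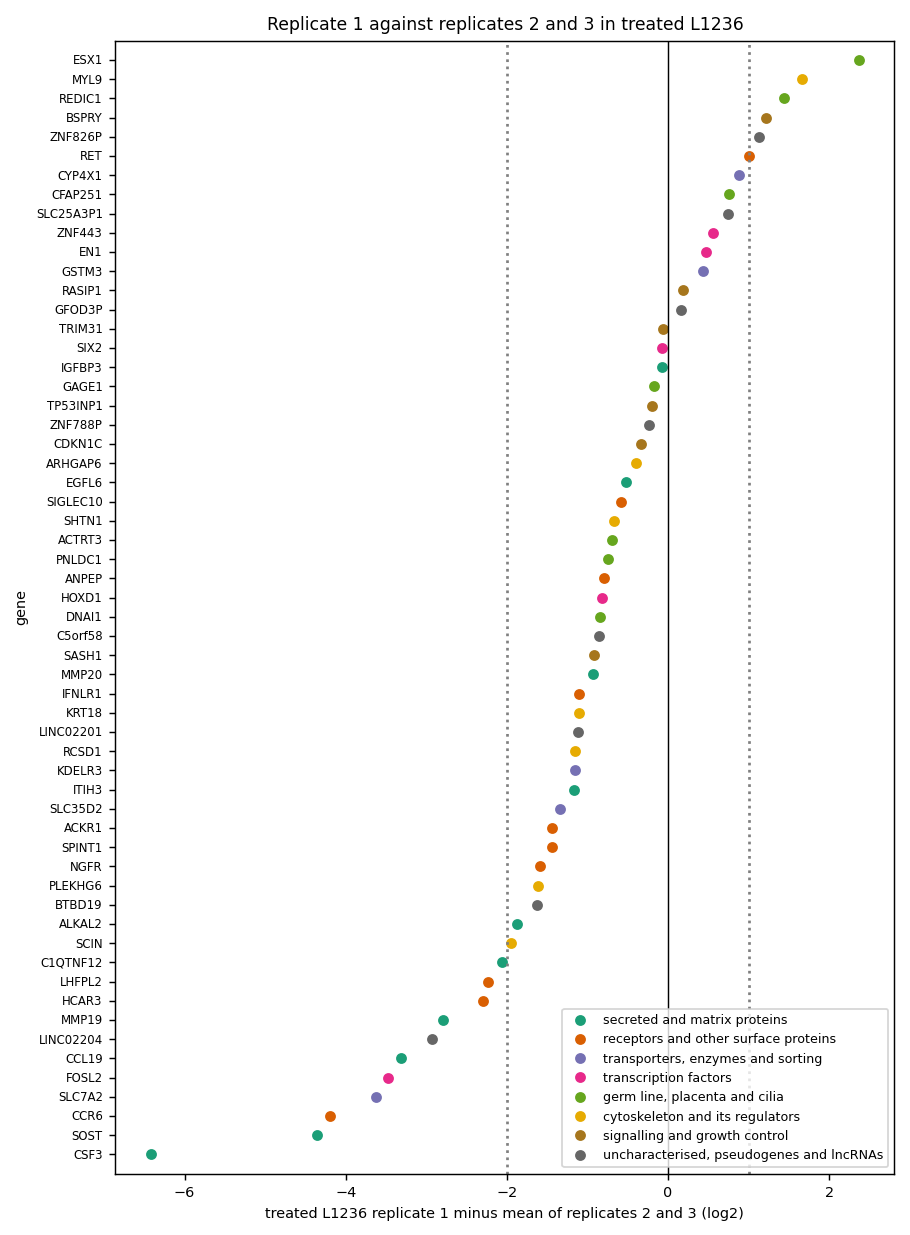
For each of the 58 members (rows), the point shows treated L1236 replicate 1 minus the mean of replicates 2 and 3 (log2, horizontal axis), coloured by role. Dotted lines mark -2 and 1. The 11 points left of -2 include CSF3 (-6.42) and 4 other secreted proteins, and the 6 points right of 1 include ESX1 (2.37).

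The membership moved with single arrays. Without treated L1236 replicate 1 the rule gave 77 genes, of which 54 were members as described here, and BSPRY, ESX1, RET and SLC25A3P1 dropped out. Without treated L428 replicate 1 it gave 51, and 8 members dropped out, GSTM3, IFNLR1, NGFR, SIGLEC10, ACTRT3, SHTN1, C5orf58 and ZNF826P. Without treated L1236 replicate 2 or 3 it gave 52 each. Some 9 and 10 members then dropped out, with CCL19, CCR6, FOSL2, IFNLR1, LHFPL2, LINC02204, MMP19 and SLC7A2 in both cases. Just inside the limit of 6 in treated L1236 were SLC25A3P1 (6.02), RET (6.03) and CCL19 (6.08), and just outside LOC100506405 (5.99), CNN3 (5.95) and CTSL (5.94). At the limit of 4 in treated L428, IFNLR1 (3.98), GSTM3 (3.94) and ESX1 (3.93) were inside and TGFA (4.02), B3GNT5 (4.04) and WT1 (4.07) outside. At the limit of 4 in untreated L1236, RET (3.81), ESX1 (3.79) and CDKN1C (3.78) were inside and GRB10 (4.01), C3 (4.05) and LTB (4.06) outside. Of the genes left out by name, EPCAM would have met the rule (2.85, 2.83, 2.83 and 8.20 in the 4 groups), while KRT19 (4.36 in treated L1236) and IL13 (7.41 in untreated L1236) would not.

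More than 1 probe set carried the symbol of 32 members, which gave 53 further probe sets. These come from the same arrays and are a description. In 5 members another probe set met the same limits, namely BSPRY (mean of 6.61 in treated L1236), IGFBP3 (6.61), KDELR3 (7.07), SASH1 (6.97) and SCIN (8.69). A further 15 probe sets of 9 genes were higher in treated than in untreated L1236 by at least 1 without reaching 6, among them those of FOSL2, CDKN1C, RET and TRIM31. The other 33 lay within 1 of the untreated mean and below 4 in all groups. In 19 genes every other probe set was of that last kind, so for ANPEP, GSTM3, HOXD1, MYL9 and 15 others the higher level was read by a single probe set of several. Of the remaining members 26 had only 1 probe set. KRT18 and RET were read by probe sets of the kind that can bind several transcripts (suffix _x_at), and without such probe sets neither gene was a member. KRT18 had no other probe set, so its loss was fixed in advance and says nothing about its signal. The RET probe set without that suffix was at 2.96 in untreated and 4.99 in treated L1236, under the limit of 6.

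**Figure D5:**
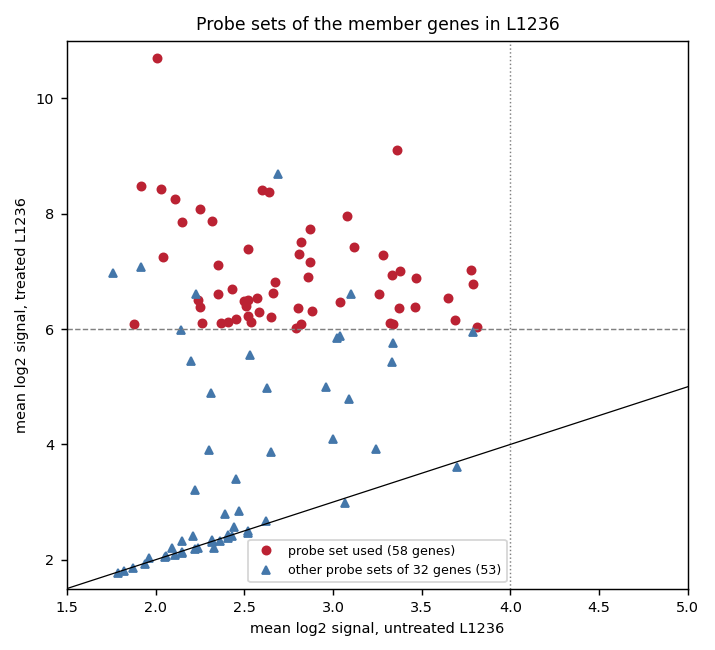
Each point is 1 probe set of a member gene, with its mean log2 signal in untreated L1236 (horizontal axis) and in treated L1236 (vertical axis). Circles are the 58 probe sets that represent the genes and triangles the 53 others. The solid line marks equal values and the dotted and dashed lines the limits of 4 and 6. Of the triangles, 33 lie within 1 of the line and 5 are in the upper left field with the circles.

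To see whether adjoining genes were higher too, the measured genes on both sides of each member were taken in the RefSeq order. They numbered 116, and none was itself a member. In limma 8 of them (6.90%) were higher in treated than in untreated L1236 at an adjusted p under 0.05, and 5 were lower, whereas 8.59% of all genes were called higher and 6.35% lower. Their median difference was -0.02, and 53 were below 4 in both L1236 groups. Without treated L1236 replicate 1 the count called higher was 13. Without treated L1236 replicate 2, or without untreated L1236 replicate 3, the count called lower was 1, and without treated L428 replicate 1 it was 9.

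The neighbours called higher were led by DMRTB1 beside SLC25A3P1 (6.66 ± 0.73 SE, limma adjusted p = 6.27e-04), PAGE1 beside GAGE1 (6.37 ± 0.63, adjusted p = 3.38e-04), SIX3 beside SIX2 (5.81 ± 0.80, adjusted p = 0.00196) and CD9 beside PLEKHG6 (4.89 ± 0.41, adjusted p = 1.23e-04). All 4 kept the call in each of the 12 fits that left out 1 array. They were not silent in treated L428, where their means were 6.60, 6.70, 7.70 and 8.02. ITIH1 and ITIH4, which flank ITIH3 and belong to its family, had means of 2.52 and 2.33 in treated L1236 (differences of 0.20 ± 0.11 and -0.03 ± 0.05, adjusted p = 0.243 and 0.63). MMP7 and MMP27, which flank MMP20, had differences of 1.02 ± 0.45 and -0.02 ± 0.02 (adjusted p = 0.176 and 0.493). GSTM5 beside GSTM3 was at 2.35 and 3.45 (1.11 ± 0.57, adjusted p = 0.232).

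Gene lists of families and tissues were compared next, with the members removed, to show how the relatives of a member behaved. All counts are of genes with a limma adjusted p under 0.05 over all genes in treated against untreated L1236. Of all genes, 8.59% were called higher and 6.35% lower, so list shares near these are not particular to a list. On the list for the inter-alpha-trypsin inhibitor family, 1 of the 7 other genes rose. This was TNFAIP6, a hyaluronan-binding protein that is not itself a chain of the inhibitor. It rose from 9.18 by 2.82 ± 0.50 (adjusted p = 0.00683). No other gene of the list was called, and the median of the 7 was -0.02. On the list of liver plasma proteins, which did not include ITIH3, 3 of 24 rose (12.5%), and 21 were below 4 in both L1236 groups. The mean of the list per array was 2.73 to 2.76 in untreated and 3.02 to 3.14 in treated L1236. Albumin (ALB, 3.01 to 3.18) and APOA1 (2.48 to 2.55) were at the floor in the 4 groups, unlike ITIH3 in treated L1236. These examples do not stand for the whole list.

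Keratins and desmosomal genes other than KRT18 rose in 2 of 21 cases (9.52%, near the 8.59% of all genes), with a median of -0.02. JUP, a plaque protein, went from 3.91 to 6.01 (2.10 ± 0.17, adjusted p = 1.17e-04), and its change was larger than in L428 by 2.56 ± 0.25 (adjusted p = 6.45e-04). The other gene, PKP3, lost the call in 10 of the 12 fits that left out 1 array. Of the epithelial junction and identity genes other than SPINT1, 4 of 23 rose (17.4%), and 15 of the 23 were below 4 both in untreated and in treated L1236. The mean of the 23 per array was 3.89 to 3.97 in untreated and 4.04 to 4.14 in treated L1236. The count was 2 without any of 5 L1236 arrays (untreated replicates 1, 2 and 3, treated replicates 2 and 3). CLDN7, which kept the call throughout, went from 2.02 to 2.78 (0.76 ± 0.16, adjusted p = 0.0134). KRT5 stayed at 1.93 to 1.96, whereas CDH1 was at 8.51 in untreated and 9.58 in treated L1236.

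Of 29 X-linked cancer-testis antigens other than GAGE1, 19 rose and 1 fell in L1236, with a median of 2.18. In L428, where 3.32% of all genes rose and 1.34% fell, 11 of the 29 rose and 0 fell, with a median of 2.17, and 22 did when treated L428 replicate 1 was left out. MAGEA6 rose by 10.11 ± 0.47 in L1236 and 9.17 ± 0.47 in L428 (adjusted p = 2.82e-06 and 2.56e-05). CTAG2 rose by 8.89 ± 0.51 and 6.80 ± 0.51 (adjusted p = 9.37e-06 and 2.13e-04). MAGEA6 and CTAG2 may share probe sequence with near-identical relatives. GAGE1 itself stayed below 4 on each treated L428 array, its highest value being 3.99.

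Of 42 matrix and mesenchymal genes other than IGFBP3 and MYL9, 4 rose (9.52%, near the 8.59% of all genes) and 2 fell. The count that rose was 7 without treated L1236 replicate 1. THY1, a surface protein of fibroblasts and T cells, went from 6.17 to 12.12 (5.95 ± 0.23, adjusted p = 7.4e-07). COL1A1 went from 7.66 to 10.52 (2.86 ± 0.32, adjusted p = 6.58e-04), while COL1A2 (2.44 to 2.49) and DCN (2.89 to 2.98) stayed at the floor in all groups. The mean of the 42 per array was 4.01 to 4.16 in untreated and 4.29 to 4.46 in treated L1236. Among detoxification genes other than GSTM3, 2 of 30 rose and 2 fell, a number that ran from 0 to 6 for the rises when single arrays were left out. It was 0 without untreated L1236 replicate 1 or treated replicate 3, and 6 without treated replicate 1. GSTM1 and GSTM2, close relatives of GSTM3, went from 12.71 to 10.55 and from 12.87 to 10.72 (-2.16 ± 0.56 and -2.16 ± 0.45, adjusted p = 0.0345 and 0.0139). These calls were lost in 8 and 4 of the 12 fits without 1 array, so the fall of both is uncertain.

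Of 47 homeobox and other developmental regulators other than SIX2, 9 rose (19.1%) and 3 fell, with a median of -0.01. The count that rose was 3 without untreated L1236 replicate 3, treated replicate 2 or treated replicate 3. PAX6, an eye and brain factor, went from 4.30 to 8.55 (4.25 ± 0.48, adjusted p = 7.38e-04), and SOX9 from 5.41 to 8.41 (3.0 ± 0.47, adjusted p = 0.00364). In L428, PAX6 was at 5.0 untreated and 6.36 treated, and SOX9 at 10.08 and 11.13. Neither change in L428 was called (limma adjusted p = 0.157 and 0.258).

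The lists of markers of other cell types held none of the 58 members, which depends on how the lists were written and is not a result. Members described above by such tissues were not on them, among them ANPEP (myeloid), RASIP1 (endothelial), MYL9 (smooth muscle), SHTN1 (axons) and REDIC1 (meiosis). The lists are given here for the same 2 L1236 groups. Of all genes, 8.59% rose and 6.35% fell between these groups. Of 30 myeloid genes, 27 were below 4 in untreated and 24 in treated L1236, and 4 rose (13.3%). CD14 (2.26 to 2.28) and LYZ (2.68 to 2.80) did not leave the floor in any group, and ITGAM was at 3.97 and 5.60 in untreated and treated L1236. The mean of the list per array was 2.93 to 2.95 in untreated and 3.19 to 3.47 in treated L1236. Of 19 endothelial genes, 18 were below 4 in both L1236 groups, with CDH5 (2.35 to 2.42) and VWF (2.29 to 2.82) at the floor and PECAM1 at 11.56 and 10.54. Of 33 striated and smooth muscle genes, 30 were below 4 in untreated and 27 in treated L1236, and 6 rose (18.2%). The count that rose was 5 or 6 when single arrays were left out. DES, at 2.65 to 2.75 in all groups, was not among those that rose. Of 34 T-cell, NK-cell and type 2 cytokine genes, 27 were below 4 in untreated and 23 in treated L1236. In that list 10 rose (29.4%), and CD3D, a chain of the T-cell receptor complex, was at 4.13 and 6.56. CD3E, another chain of that complex, stayed at the floor in the 4 groups (1.74 to 1.76). Of 52 germline and meiosis genes off the antigen list, 43 were below 4 in untreated and 25 in treated L1236, and 18 rose (34.6%). Of 36 neuronal and synaptic genes 3 rose (8.33%) and 1 fell, with SNAP25, a synaptic fusion protein, at 11.15 and 11.10. The count of neuronal genes that rose was 5 without treated L428 replicate 1 or treated L1236 replicate 1. The cell lines themselves carried their defining marker TNFRSF8 (CD30) at 9.57 to 10.39 in the 4 groups, and MS4A1 (CD20) stayed at 2.46 to 2.55. TNFRSF8 does not stand for its list, since 13 of 22 Hodgkin Reed-Sternberg cell markers rose in L1236 (59.1%) and 0 fell. That count was 7 without untreated or treated L1236 replicate 3. CCL22 was at 3.61 in untreated and 10.07 in treated L1236. TRAF1 was at 11.49 and 11.69 in untreated and treated L428 but at 2.1 and 2.07 in L1236. PDCD1LG2 was at 2.44 and 3.05 in L428 and at 8.7 and 8.4 in L1236. Of 26 B-cell programme genes, 13 were below 4 in untreated and 11 in treated L1236, among them CD79A (3.53 and 3.78). Some others were high there, with PAX5 at 11.78 and 12.61 and POU2AF1 at 13.41 and 12.23 in untreated and treated cells. Of the 26, 4 rose (15.4%) and 1 fell, and the count that rose was 2 to 5 when single arrays were left out. SPIB was at 2.66 in untreated and 9.19 in treated L1236, and at 8.86 and 9.42 in L428. CD24 was at 3.05 and 5.27 in untreated and treated L1236. The part of other cell types in the members' levels was not tested.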

How the data were processed

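The authors deposited a table of log2 signals by probe set, computed with RMA per the submitters' processing notes. The sources used here do not name the RMA version. The log2 scale was read from the values (0.66 to 16.62), and centring beyond RMA is unknown. By replicate, the median signal was 3.03, 3.09 and 3.02 for L428 without the drug and 3.01, 3.04 and 3.06 with it. For L1236 it was 3.02, 3.01 and 3.03 without the drug and 3.05, 3.03 and 3.04 with it. By its design text the study used a whole-transcript array, whereas the probe set names come from a 3' expression array. The 3 arrays per group limit the precision.

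Of 54675 probe sets (62 controls), 41097 had 1 gene symbol in the platform annotation, 1801 several and 11777 none, and 41043 matched the RefSeq table of GRCh38.p14. No dim gene was removed. The members and the gene lists were chosen with earlier results of these data known, and roles, partners, neighbours and marker examples after the members were seen. All members are named. Full array values are given for the 20 with the highest mean in treated L1236 and for members of a list or family, and up to 3 called genes per list were eligible to be named.

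For genes outside the members, limma 3.58.1 in R 4.3.3 fitted 4 group means to all 12 arrays, with empirical Bayes moderation, two-sided tests and Benjamini-Hochberg adjustment over 19775 genes. The fit was tested on simulated data. The replicate numbers come from the sample labels. Over all genes, the deviations of same-numbered untreated and treated arrays from their group means correlated at 0.25, 0.169 and 0.164 in L428, which met the criterion for pairing (every value over 0.1), although numbers 2 and 3 correlated with each other as highly (0.173 and 0.161). In L1236 they correlated at 0.049, -0.018 and 0.063, which did not meet it. Alternatives were other probe sets, limits, group medians, median centring, quantile normalization, a filter on dim genes, the replicate number as a block, array weights, the arrays of 1 line only and the omission of arrays. The promoter window listed first was added after the data were seen. Errors of differences are SE.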

Additional observations from a re-analysis of the deposited data

Results flagged for a closer look

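Of the 18 list genes eligible to be named, 4 responded differently in L1236 and L428 (limma difference test, adjusted p under 0.05 over all genes). These 18 were chosen for a large change in L1236, so a difference from L428 was favoured in advance. The share over all genes (2.66% with a larger response in L1236) is therefore not a like comparison, and the count is a description. THY1, of the matrix list that holds IGFBP3 and MYL9, differed by 4.61 on the log2 scale (adjusted p = 1.06e-04), with L1236 means of 6.17 untreated and 12.12 treated. JUP, of the desmosomal list that holds KRT18, differed by 2.56 (adjusted p = 6.45e-04). Both kept the call in each of the 12 fits that left out 1 array. PAX6, a developmental regulator like the member SIX2, differed by 2.89 (adjusted p = 0.0493) and COL1A1 by 2.07 (adjusted p = 0.0364), and these calls were lost in 9 of the 12 such fits each, with adjusted p of up to 0.125 and 0.0941. With the replicate number within each line as a block, the line-by-drug difference had an adjusted p of 0.122 for PAX6 and 0.0633 for COL1A1, and of 0.00599 for THY1 and 0.0167 for JUP.

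Probe sets outside the gene table followed the same limits as the members. There were 10 without a gene symbol, with means of 6.02 to 9.80 in treated L1236, and 6 with several symbols, with means of 6.08 to 6.97. Among the 10, the probe set with the highest signal read 9.69, 9.67 and 10.04 on the treated L1236 arrays and had means of 2.55, 2.60 and 2.70 in untreated L428, treated L428 and untreated L1236. Another read 3.86, 7.65 and 7.54, with replicate 1 low as in part of the members.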

How the results depend on the processing

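The count of 58 members was 35 with the mean of a gene's probe sets (31 of them shared), 123 with a silent limit of 5, 133 and 22 with an on limit of 5 and 7, and 20 when every array had to meet the limits. It ran from 51 to 77 when single arrays were left out and was 67 (46 shared) without all arrays numbered 1. Median centring kept all 58 members. The L1236 response (2955 genes) ran from 1506 to 4488 without single arrays and was 9726 with array weights, whose fit stopped before its convergence tolerance, and 6817 without all arrays numbered 1. Its share of higher calls was 57.5%, 44.6% after median centring (3923 genes), 37.4% with array weights and 50.2% without dim genes. The L428 response (920) ran from 368 to 3532 without single arrays and was 6561 with array weights, 206 with the L428 arrays alone and 5717 without all arrays numbered 1. The difference between the lines (line-by-drug difference, 914 genes) ran from 442 to 2112 without single arrays and was 5718 with array weights and 4697 without all arrays numbered 1. With the replicate number within each line as a block, the counts were 2510, 850 and 497. Of the 31 L1236 calls among list genes eligible to be named and neighbours of members, 18 were kept in every fit without 1 array. Under the block 9 of the 31 lost the call, namely COL12A1, GSTM1, HOXB2, MUC1, PKP3, TP73, TNFRSF1A, ARSB and NDUFAF6. No such call changed its direction in any alternative run. The causes of these shifts were not tested.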
